A study of Mus musculus with 8 samples.

Results

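Regulators of G protein signalling (RGS proteins) were followed in eosinophils sorted from the bone marrow and the small intestine of mice. The account covers 9 RGS genes, Rgs1, Rgs2, Rgs3, Rgs10, Rgs12, Rgs14, Rgs16, Rgs18 and Rgs19, of 38392 genes in the table. They were chosen by symbol after the tissues had been compared, because Rgs1 was among the largest rises. Their differences between the tissues are therefore given as a description, without a p-value. Eosinophils are granulocytes made in bone marrow that take up residence in the gut lining, and the study asked how their transcriptome changes there. All samples were RNA from wildtype C57/BL6 mice, with 4 female mice for bone marrow and 4 for small intestine, and the labels name no treatment of the mice and no age. Both sorts took CD11b+ cells that were positive for SiglecF with high side scatter, and the intestinal gate also required absence of MHC-II, whereas the bone marrow gate required absence of Ly6G and Ly6C. As the study describes, cells of the intestine were freed by warm enzymatic digestion and enriched on magnetic beads, and bone marrow was flushed and sorted without either step, so tissue and handling cannot be told apart.

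Receptors of the G protein-coupled class switch on a G protein by loading GTP onto its alpha subunit, which then parts from the beta-gamma pair. RGS proteins speed up the hydrolysis of that GTP and so shorten the signal. In leukocytes the family is best known for limiting the response to chemokines, whose receptors couple to the Gi class of alpha subunits. Members of the R4 subfamily are little more than an RGS domain, those of the R12 subfamily can carry further domains that bind G alpha subunits, and those of the RZ subfamily have a cysteine-rich stretch that is palmitoylated.

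The RGS domain is shared by all 9 genes, so their coding sequences were compared first, because reads that match several genes could be assigned wrongly. Over the 36 pairs of genes, the longest run of identical coding bases was 23, shorter than the read length of at least 75 bases. The most alike stretches of 75 bases are shown for Rgs1 and Rgs18 and for the most alike pair of all, Rgs3 and Rgs16. Rgs1 was as like Rgs2 as Rgs18, with 60 of 75 bases identical at most, and that pair is not shown. The run of 23 bases was found for Rgs1 with Rgs2 and for Rgs3 with Rgs16. Bases that are identical within the pair are in capitals. Sequences were read from the longest coding transcript of each gene in GENCODE M21 (GRCm38), in the direction of the gene, and positions count from the first base of the start codon. For Rgs1 (positions 295 to 369) and Rgs18 (298 to 372), 60 of 75 bases were identical:
Rgs1: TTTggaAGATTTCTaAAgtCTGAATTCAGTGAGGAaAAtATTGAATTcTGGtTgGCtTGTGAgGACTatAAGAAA
Rgs18: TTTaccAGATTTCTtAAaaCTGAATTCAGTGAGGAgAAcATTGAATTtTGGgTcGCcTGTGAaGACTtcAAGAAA
For Rgs3 (positions 2563 to 2637) and Rgs16 (232 to 306), 63 of 75 bases were identical:
Rgs3: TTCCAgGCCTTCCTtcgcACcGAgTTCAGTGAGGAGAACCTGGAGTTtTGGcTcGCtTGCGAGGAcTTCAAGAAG
Rgs16: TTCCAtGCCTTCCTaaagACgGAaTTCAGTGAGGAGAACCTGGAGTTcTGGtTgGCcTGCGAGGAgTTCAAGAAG
The stretch TTCAGTGAGGA was identical in all 4 sequences. Aligned without gaps, every coding stretch of 75 bases held at least 12 mismatches between any pair of the 9 genes. UTRs were not compared.

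The libraries held 11508002 to 21289164 reads in genes. A normalised count is a read count, recovered from the deposited values, scaled by the library's size factor. Values per library are given in a fixed order, for bone marrow BM_1, BM_3, BM_4 and BM_5, and for small intestine SI_6, SI_7, SI_10 and SI_11. A difference is taken on the deposited log2 scale, with bone marrow subtracted from small intestine, ± the standard error (SE) of the limma fit with 4 libraries per tissue. Siglecf, an inhibitory lectin receptor of eosinophils, encodes a surface marker of both gates. It stood at 2646 to 3820.2 normalised counts in small intestine against 489 to 642 in bone marrow. The genes for CD11b, Ly6G and Ly6C are not reported here. Ccr3, the eotaxin receptor, and Il5ra, the receptor for interleukin 5, were low in bone marrow (45.9 to 102 and 4.78 to 17.7) and high in small intestine (13285 to 19653 and 894 to 1415), while the granule protein genes Epx, Prg2 and Prg3 went the other way (303 to 398, 1417 to 2337 and 35.2 to 64.1 in bone marrow against 12.5 to 29.5, 116 to 206 and 1.39 to 9.48). Transcripts of neutrophil precursors stood high in the bone marrow libraries: 8 such genes summed to 334789 to 423554 normalised counts there and 473 to 551 in small intestine, led by Mpo, the myeloperoxidase gene. All 4 bone marrow libraries thus held far more neutrophil precursor than eosinophil granule transcript, and no result could be computed without them. The bone marrow gate had asked for SiglecF with high side scatter and for absence of Ly6G and Ly6C. The small intestine libraries held epithelial transcripts, for which 9 genes summed to 4964 to 33787 normalised counts against 194 to 218, highest in SI_6. Early response genes that warm digestion can raise were higher in small intestine for 12 of 12 genes by limma (adjusted p under 0.05). Of all genes, 22.0% were higher by that threshold, and 35.3% of those with a mean of at least 10 normalised counts. The 12 genes summed to 61292 to 82011 against 551 to 785. In bulk RNA, fewer cells of a type and less RNA per cell cannot be told apart.

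Rgs1, an R4 member that limits chemokine receptor signalling in lymphocytes, showed by far the widest gap of the 9 genes. In bone marrow it stood at 52.1, 34.6, 47.8 and 45.6 normalised counts. In small intestine it stood at 78632, 90214, 91653 and 117002. The lowest intestinal library was 1509-fold above the highest bone marrow library, and the ratio of the means was 2096. The difference was 10.92 ± 0.21 on the log2 scale. In the small intestine Rgs1 took between 0.506% and 0.680% of all reads in genes and ranked 6 or 7 by reads in every library, whereas in bone marrow its rank lay between 10050 and 10886. The early response genes rose with it, and their part in the level of Rgs1 was not tested. Rgs1 lies on chromosome 1 of GRCm38 (144242296 to 144249242, minus strand).

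**Figure D1:**
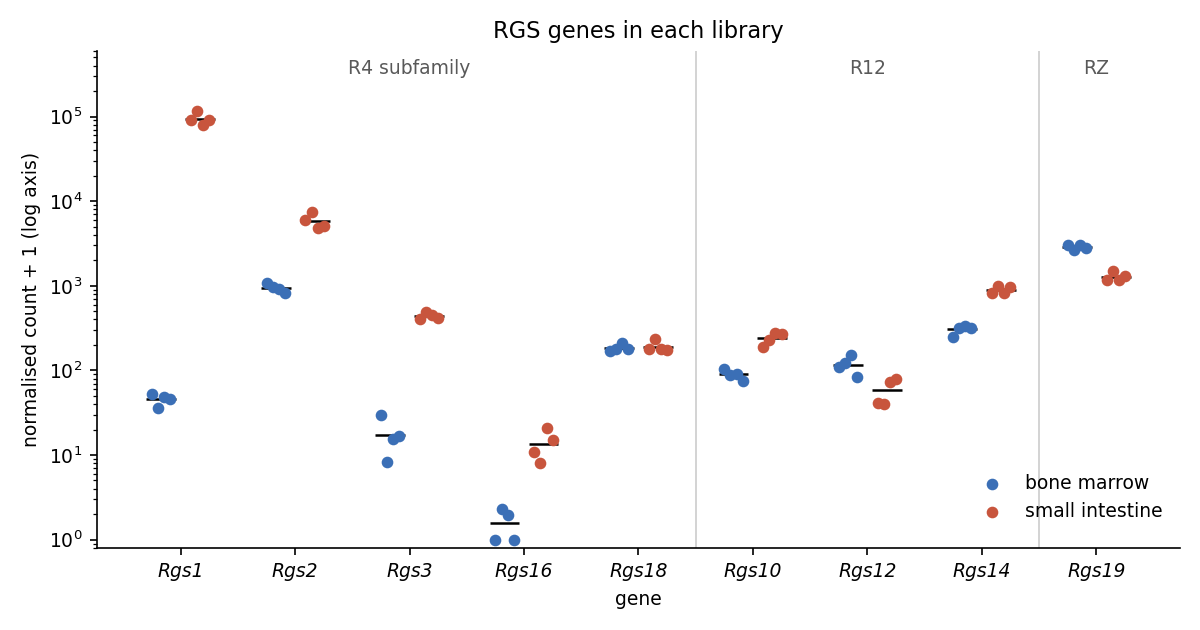
Normalised counts plus 1 of the 9 RGS genes in each library on a log axis, grouped by subfamily, with bone marrow in blue and small intestine in red; each point is a library and each bar the mean of 4. Rgs1 lies near 45 in bone marrow and near 94375 in small intestine, Rgs18 overlaps between the tissues, and Rgs12 and Rgs19 are lower in small intestine.

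Rgs2, an R4 member that acts preferentially on the Gq class, was the second most abundant RGS transcript per length in both tissues. It stood at 1089, 977, 907 and 831 normalised counts in bone marrow. The small intestine libraries held 4853, 5038, 6012 and 7503. All 4 intestinal libraries were above all bone marrow libraries, with a ratio of means of 6.15 and a difference of 2.60 ± 0.21. Rgs2 lies on chromosome 1 (143999338 to 144004161, minus strand), and its order over the intestinal libraries was that of Rgs1, lowest in SI_6 and highest in SI_11.

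Rgs3, an R4 gene with long forms that carry extra domains, stood at 28.3, 7.17, 14.4 and 15.8 normalised counts in bone marrow and rested on 80 reads there. In small intestine it stood at 451, 415, 406 and 489.5. The tissues did not overlap, the ratio of means was 26.8, and the difference was 4.58 ± 0.32. The bone marrow libraries spread widely, with BM_1 at 3.95 times the level of BM_3. Rgs3 lies on chromosome 4 (62559847 to 62704001, plus strand).

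Rgs16, a small R4 regulator of Gi and Gq signals, was barely covered. Bone marrow held 3 reads in all (0, 1.30, 0.957 and 0 normalised counts), and small intestine held 43 reads (19.6, 13.9, 9.85 and 7.11 normalised counts). The intestinal libraries were all above the bone marrow ones, but no fold is given against so few reads, and the difference of 2.48 ± 0.37 depends on how the scale treats low counts. Rgs16 lies on chromosome 1 (153740349 to 153745468, plus strand) and shares 236 exon bases with the antisense gene Gm28513. The strand setting of the counting is not given in the sources used here, so reads of the overlapping genes cannot be told apart.

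Rgs18, an R4 member best known from platelets and megakaryocytes, showed no gap between the tissues. It stood at 169, 179, 212 and 178 normalised counts in bone marrow and at 176, 173, 178 and 231 in small intestine. The libraries of the tissues overlapped, and 3 of the 4 intestinal values lay close together while SI_11 stood above them. The difference was 0.03 ± 0.19. With each library centred on its median the sign turned, to -0.87. Platelet markers did not move as one with the tissue, since of 7 genes 2 were higher in small intestine, 1 was lower and 4 passed in neither direction. The limma threshold of 0.05 called 34.9% of all genes. Rgs18 lies on chromosome 1 (144752683 to 144775435, minus strand).

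The 3 genes of the R12 subfamily moved in different directions. Rgs10, a small Gi regulator known from microglia and macrophages, stood at 103, 87.4, 90.9 and 73.4 normalised counts in bone marrow. In small intestine it held 275, 266, 186 and 225. The tissues did not overlap, and the difference was 1.38 ± 0.21, a ratio of means of 2.69. Rgs10 lies on chromosome 7 (128373621 to 128418758, minus strand).

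Rgs14, which joins an RGS domain with Ras-binding domains and a GoLoco motif for inactive Gi, stood at 249, 316, 331 and 319.8 normalised counts in bone marrow and 822, 955, 829 and 987 in small intestine. It was higher in every intestinal library, with a difference of 1.56 ± 0.19 and a ratio of 2.96. Rgs12, the largest of the 9 proteins and also a carrier of a GoLoco motif, stood at 107, 120.0, 151 and 81.8 in bone marrow. The small intestine libraries held 72.0, 77.7, 40.5 and 39.1. All were below the bone marrow libraries, but only by 4.15 counts between the nearest ones, BM_5 and SI_7, and the difference was -0.99 ± 0.30. Rgs14 lies on chromosome 13 (55369732 to 55384687) and Rgs12 on chromosome 5 (34949445 to 35039644), both on the plus strand. The antisense gene Gm43791, not in the table, covers 467 exon bases of Rgs12.

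Rgs19, the RZ member first described as a partner of G alpha i3, was the most abundant RGS transcript in the bone marrow libraries. It stood at 2997, 2662, 3037 and 2767 normalised counts there. In small intestine it stood at 1156, 1320.2, 1159.6 and 1499. Every intestinal library was below every bone marrow library, the bone marrow mean was 2.23 times the intestinal one, and the difference was -1.16 ± 0.18. Rgs19 lies on chromosome 2 (181688419 to 181693977, minus strand).

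Of the 9 genes, 6 were past the limma threshold of 0.05 as higher in small intestine, 2 as lower, and Rgs18 was in neither group. Over all 38392 genes the same threshold called 34.9%, with 22.0% higher and 12.9% lower. Of the genes called, 63.2% were higher, against 29.5% with median centring and 45.8% with quantile normalisation. Among 16308 genes whose mean reached 10 normalised counts, as did that of 8 of the 9, it called 63.4% (35.3% higher and 28.1% lower). The tissues did not overlap for 8 of the 9 genes, against 34.3% of all genes (20.3% higher and 13.9% lower) and 67.4% of those with a mean of at least 10 (36.6% higher and 30.9% lower). Since the contrast itself chose the genes, nothing is read from these counts. The median difference of the 9 was 1.56 and that of all genes 0.37. With each library centred on its median the median of all genes moved to -0.53, and with quantile normalisation to -0.03. A library's median was taken over all 38392 genes, of which 22084 had a mean under 10 normalised counts. Such a median can depend on how many sparse genes have reads. Genes with any read numbered 20274, 24592, 19713 and 30886 in bone marrow and 29133, 28994, 33346 and 26624 in small intestine. Among genes with a mean of at least 10 the median difference was 0.16 without centring. Under centring Rgs10 stood at 0.48 and Rgs14 at 0.66, whereas Rgs1 was at 10.02 and Rgs19 at -2.06. The 8 genes other than Rgs18 kept their direction under each of the 15 alternatives that gave them a value, and Rgs16 had none under the filter on low counts. Rgs12 was no longer past the threshold when BM_1, BM_3, BM_4, SI_10 or SI_11 was left out, and Rgs10 and Rgs14 were not under median centring.

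Levels of different genes were compared per kilobase of exon, since a longer transcript gives more reads. In bone marrow the order was Rgs19 (1285 ± 81.1 normalised counts per kb, mean ± SD), Rgs2 (262 ± 30.3), Rgs18 (90.8 ± 9.47), Rgs14 (71.7 ± 8.77), Rgs10 (51.8 ± 7.03), Rgs12 (13.6 ± 3.40), Rgs1 (6.48 ± 1.08), Rgs3 (1.52 ± 0.815) and Rgs16 (0.242 ± 0.286). Among neighbours in that order, the libraries overlapped for Rgs14 and Rgs10 only. In small intestine the order was Rgs1 (13585 ± 2328 per kb), Rgs2 (1613 ± 334), Rgs19 (576 ± 73.0), Rgs14 (212 ± 20.1), Rgs10 (139 ± 24.0), Rgs18 (93.4 ± 13.7), Rgs3 (40.8 ± 3.54), Rgs12 (6.75 ± 2.40) and Rgs16 (5.39 ± 2.33). Here Rgs10 overlapped with Rgs18, and Rgs12 with Rgs16. The lengths are unions of annotated exons, which exceed the longest transcript for 7 of the 9 genes, all but Rgs16 and Rgs18. With the longest protein-coding transcript instead, Rgs18 moved to the fifth place in bone marrow, where its libraries and those of Rgs14 and Rgs10 overlapped in turn, and Rgs3 and Rgs18 changed places in small intestine with overlapping libraries.

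The make-up of the RGS transcripts in the libraries was therefore dominated by a different gene in each tissue. Of the summed level per kb of 21 RGS genes, Rgs19 made up 71.8% ± 1.14 in bone marrow (mean ± SD, n = 4) and 3.55% ± 0.278 in small intestine. Rgs1 made up 0.361% ± 0.0477 in bone marrow and 83.1% ± 0.615 in small intestine. Rgs2 held the second place in both, at 14.6% ± 1.49 and 9.84% ± 0.682. Rgs18 went from 5.08% ± 0.473 of the sum to 0.574% ± 0.0371 although its own libraries overlapped between the tissues, because the sum grew with Rgs1. With the longest protein-coding transcript as the length, the share of Rgs1 in small intestine was 86.8% ± 0.588. These are shares of the RNA of whole libraries. In bone marrow, 8 neutrophil precursor genes summed to 334789 to 423554 normalised counts and 6 eosinophil genes to 2394 to 3387. The part of other cells in the make-up was not tested.

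**Figure D2:**
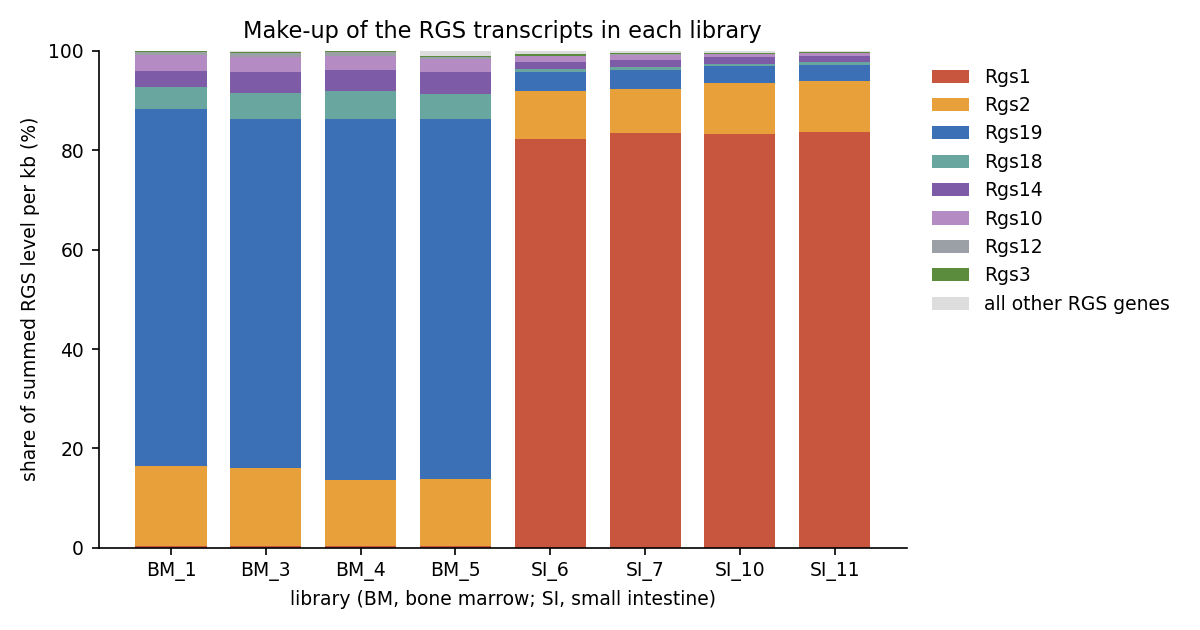
Share of each RGS gene in the summed RGS level per kb of exon, in percent, as a stacked bar for each library; 21 RGS genes make up the sum, and those not named are pooled at the top. Rgs19 fills 70.1% to 72.6% of the bone marrow bars and Rgs1 fills 82.2% to 83.6% of the small intestine bars.

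Ratios of reads within a library do not depend on the scaling between libraries. Per read of Rgs18, bone marrow libraries held 0.193 to 0.309 reads of Rgs1 and small intestine libraries 447 to 520. Per read of Rgs19, there were 0.299 to 0.367 reads of Rgs2 in bone marrow and 3.82 to 5.18 in small intestine. For Rgs10 and Rgs12, both of the R12 subfamily, the ratio ran from 0.601 to 0.957 in bone marrow and from 3.43 to 5.76 in small intestine. In each of these ratios the tissues were apart.

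Rgs1, Rgs2 and Rgs18 lie in a cluster of RGS genes on chromosome 1, together with Rgs13 and Rgs21, which are named here for their position. The start of Rgs2 lies 245 kb before that of Rgs1 and the start of Rgs18 lies 526 kb behind it, in chromosome order. Along the cluster the differences were 2.60 for Rgs2, 1.90 for Rgs13, 10.92 for Rgs1, 0.34 for Rgs21 and 0.03 for Rgs18, though Rgs13 and Rgs21 had mean levels of only 2.92 and 1.55 normalised counts. Neighbours of Rgs1 that are not RGS genes went both ways. Among them, B3galt2, a galactosyltransferase gene, was higher by 1.91 and Uchl5, a proteasome-bound deubiquitinase gene, fell by 2.75, both chosen after their values were seen. Of the 19 genes within 1000 kb of the start of Rgs1, none but Rgs1 had a difference above that of Rgs2.

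**Figure D3:**
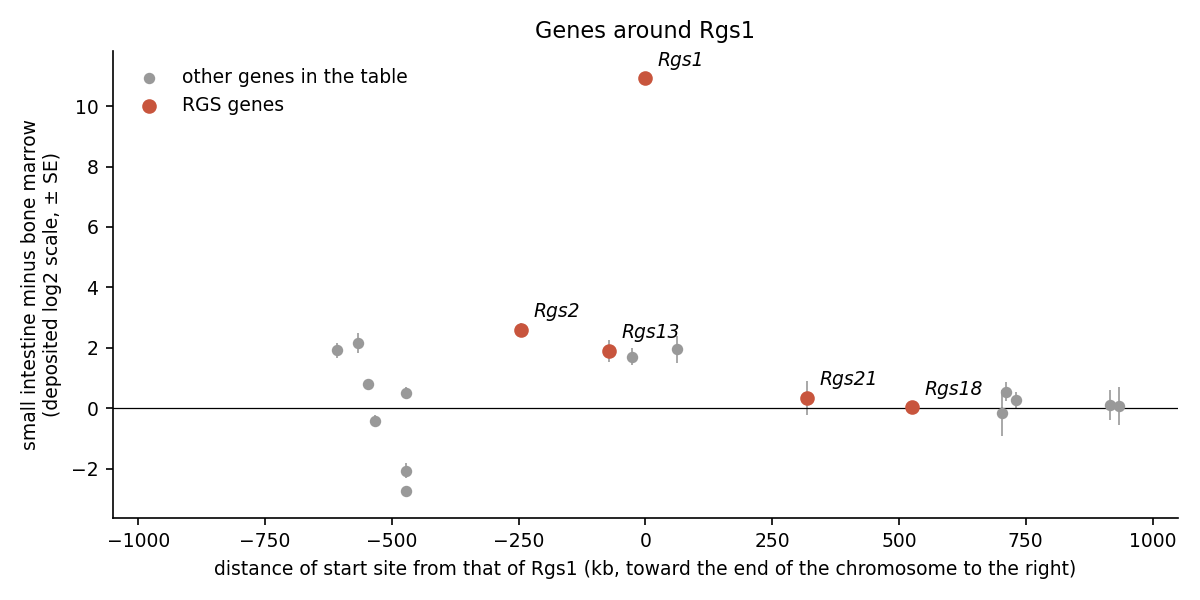
Difference between the tissues on the deposited log2 scale (± SE) for the 19 genes of the table whose start lies within 1000 kb of the Rgs1 start, against the distance in kb; RGS genes are in red and all others in grey. Rgs1 stands at 10.92, and the other 18 genes lie between -2.75 and 2.60.

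The rest of the family was low. Of 15 other genes of the RGS family and its R7 binding proteins, 6 had a mean of at least 10 normalised counts. Over all 15, 8 were higher in small intestine and 1 was lower by limma (adjusted p under the threshold of 0.05; 34.9% of all genes called), with a median difference of 1.90. Among the 6 better covered, 2 were higher and 1 lower. With quantile normalisation the 15 split into 6 higher and 2 lower. BM_5 was the highest bone marrow library for 12 of the 15 genes. Without it 11 of the 15 were called, with low counts in most of them. BM_5 also held 2484 reads of olfactory receptor genes, against 124 to 698 in the other bone marrow libraries. The small intestine libraries held 1168, 1142, 2897 and 696 such reads, so reads of these genes were not particular to BM_5. These reads are not scaled for depth. Whether they are stray reads, and the part of stray reads in the low RGS genes of either tissue, was not tested.

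Rgs5, an R4 member typical of pericytes and vascular smooth muscle, stood at 1.53, 1.96, 0.957 and 8.37 normalised counts in bone marrow. In small intestine it stood at 275, 196, 77.7 and 109. The tissues did not overlap and the difference was 4.73 ± 0.48 (limma adjusted p = 0.000124). Its level among the intestinal libraries was highest in SI_6, where the smooth muscle gene Myh11 was also highest (918, 625, 283 and 410.1 normalised counts), and the part of such cells was not tested. Rgs9bp, which anchors the R7 protein Rgs9 at membranes, stood at 119.5, 96.5, 74.6 and 80.0 in bone marrow. It fell to 11.9 to 37.2 in small intestine, a difference of -2.01 ± 0.36 (limma adjusted p = 0.00268). Rgs9 itself, known from photoreceptors and striatum, was higher by 2.63 ± 0.70 (limma adjusted p = 0.0184), a call lost under quantile normalisation and when any of BM_1, BM_4, SI_6, SI_7 or SI_10 was left out, with adjusted p between 0.0535 and 0.0826. Rgs22, Rgs8 and Rgsl1 were not called, with limma adjusted p of 0.1, 0.0737 and 0.275. Their differences were 1.95 ± 0.81, 1.04 ± 0.39 and 1.14 ± 0.73. Rgs22 was called under 3 alternatives and Rgs8 under 2, and without BM_5 the limma adjusted p was 0.0152 for Rgs22 and 0.0214 for Rgs8.

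Several other proteins carry an RGS-like domain without being classed as RGS proteins. Of 9 such genes, 6 were higher in small intestine and none was lower by limma, with a median difference of 1.09. That made 66.7% called, against 34.9% of all genes (22.0% higher and 12.9% lower). All 9 had a mean of at least 10 normalised counts, and of such genes 63.4% were called (35.3% higher and 28.1% lower). Under median centring 2 were higher and 2 lower. Axin2, a scaffold and target of Wnt signalling, stood at 284 to 569 normalised counts in small intestine against 5.58 to 9.78 in bone marrow (5.06 ± 0.26, limma adjusted p = 3.42e-06). The RhoGEFs that carry the signal of the G12 class to RhoA were also among them. Arhgef12 rose by 2.93 ± 0.46 and Arhgef11 by 1.59 ± 0.18 (limma adjusted p = 0.00127 and 0.000243), the second at 0.69 with an adjusted p of 0.249 under median centring. Arhgef1, the form of haematopoietic cells and the most abundant of the list, differed by 0.50 ± 0.17 with a limma adjusted p of 0.04999, a call that ended under 6 alternatives and turned to -0.40 under median centring. Axin2 and Arhgef12 were highest in SI_6, the library with the most epithelial transcripts.

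Of 16 G alpha subunit genes, 7 were higher and 3 were lower in small intestine by limma, with a median difference of 0.84. That made 62.5% called, against 34.9% of all genes and 63.4% of those with a mean of at least 10 normalised counts. The Gi genes on which most RGS proteins act did not move together. Gnai2, the main Gi alpha subunit of leukocytes, stood at 6555, 6519, 6162 and 5366 normalised counts in bone marrow. It fell to 2863, 3350.5, 3735 and 4194 in small intestine (-0.81 ± 0.20, limma adjusted p = 0.0119). Gnai3 was also lower (-0.91 ± 0.21, limma adjusted p = 0.00897). The rare Gnai1 was at 0, 0, 1.91 and 0 in bone marrow and rose to 42.6, 30.5, 24.1 and 19.0 (3.70 ± 0.38, limma adjusted p = 0.000131). Gnaq, the alpha subunit that turns on phospholipase C beta, rose by 1.64 ± 0.17, and Gnao1, known from neurons, rose by 1.76 ± 0.38 (limma adjusted p = 0.000145 and 0.00684). The G12 class split: Gna13 was higher by 0.998 ± 0.19 and Gna12 was lower, at -1.52 ± 0.21 (limma adjusted p = 0.00372 and 0.000676). Under median centring the 16 genes split into 2 higher and 4 lower. There Gnaq, Gna13 and Gnao1 lost their calls, with limma adjusted p of 0.212, 0.884 and 0.136.

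Of 17 beta and gamma subunit genes, 5 were higher and 4 lower by limma, with a median difference of -0.21. The share called was 52.9%, against 34.9% of all genes and 63.4% of those with a mean of at least 10 normalised counts. The balance differed between normalisations, with 3 higher and 9 lower under median centring and 3 and 6 under quantile normalisation. Gngt2, a gamma subunit first found in cones, stood at 840.4 to 1352 normalised counts in small intestine against 10.4 to 29.7 in bone marrow (5.34 ± 0.33, limma adjusted p = 7.85e-06). Gng2 and Gnb4 rose by 3.35 ± 0.22 and 2.28 ± 0.24 (limma adjusted p = 1.12e-05 and 0.000135). The gamma subunits Gng11, Gng3 and Gng12 were lower, at -1.85 ± 0.31, -1.65 ± 0.28 and -1.09 ± 0.23 (limma adjusted p = 0.00182, 0.00187 and 0.0054). Gnb1, the most abundant beta subunit, stood at 3018 to 3641 normalised counts in small intestine against 2738 to 3318 in bone marrow and was not called (0.06 ± 0.18, limma adjusted p = 0.822).

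Receptors are also silenced by kinases and arrestins. Of 8 such genes, 3 were higher and 1 lower by limma, with a median difference of 0.43. Median centring and quantile normalisation each gave 3 and 2. Grk5, a receptor kinase, stood at 585 to 747 normalised counts in small intestine against 23.0 to 41.8 in bone marrow (4.33 ± 0.24, limma adjusted p = 4.43e-06). Arrb1, which encodes beta-arrestin 1, rose by 2.35 ± 0.18, and Grk1, the kinase of rhodopsin, rose by 2.57 ± 0.61 from near 0 (limma adjusted p = 2.72e-05 and 0.0111, the second lost without SI_10 at 0.0563). Grk3 was lower, at -1.34 ± 0.18 (limma adjusted p = 0.000636). Arrb2 stood at 1254 ± 161 normalised counts in small intestine against 1753 ± 130.0 in bone marrow, and its limma adjusted p was 0.0693. It was called lower under 9 of the 15 alternatives, among them voom (0.00186) and quantile normalisation (0.00417).

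Of 7 genes for GoLoco proteins, which hold inactive Gi subunits, and for the Ric8 chaperones of alpha subunits, 3 were higher and none was lower by limma, with a median difference of 0.55. The share called was 42.9%, against 34.9% of all genes and 63.4% of those with a mean of at least 10 normalised counts. Under median centring 1 was higher and 1 lower. Rap1gap rose by 2.30 ± 0.47, Gpsm1 by 1.26 ± 0.28 and Ric8a by 1.14 ± 0.18 (limma adjusted p = 0.00488, 0.0079 and 0.00134). The calls of Gpsm1 and Ric8a ended under median centring, with limma adjusted p of 0.558 and 0.711, and that of Gpsm1 also under quantile normalisation (0.0521). Gpsm3, the GoLoco protein of leukocytes, differed by 0.55 ± 0.22 (limma adjusted p = 0.0949). It was called higher under 6 alternatives, with adjusted p from 0.0155 to 0.0476, and turned to -0.35 under median centring. Without SI_6, 5 of the 7 were called, 4 higher and 1 lower.

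Among 19 effectors of alpha and beta-gamma subunits, 11 were higher and 4 lower by limma, with a median difference of 1.66. That made 78.9% called, against 34.9% of all genes and 63.4% of those with a mean of at least 10 normalised counts. Median centring gave 6 higher and 4 lower, and quantile normalisation 6 and 5. Prex1, a Rac exchange factor driven by beta-gamma subunits, stood at 2727 to 3802 normalised counts in small intestine against 269.6 to 412 in bone marrow (3.15 ± 0.21, limma adjusted p = 1.36e-05). Pik3r5, the adaptor of the phosphoinositide 3-kinase gamma, rose by 2.61 ± 0.20 (limma adjusted p = 2.59e-05). The adenylyl cyclases went both ways. Adcy6 was higher by 3.57 ± 0.62, and Adcy3 and Adcy4 were lower, at -2.37 ± 0.32 and -1.24 ± 0.18 (limma adjusted p = 0.00212, 0.000561 and 0.000938). Adcy6 was highest in SI_6 (593, 287, 102 and 79.4 normalised counts), as the epithelial markers were, and the part of such cells was not tested. Plcb4, a phospholipase C, was lower, at -1.79 ± 0.32 (limma adjusted p = 0.00235). Plcb2, the abundant form of leukocytes, was not called (0.23 ± 0.17, limma adjusted p = 0.354), although voom called it (0.0213), and its sign turned under median centring and quantile normalisation.

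Of 22 receptors of leukocytes that couple to Gi, 13 were higher and 3 lower by limma, with a median difference of 2.02. Under median centring 11 were higher and 5 lower. Hcar2, a receptor for niacin and beta-hydroxybutyrate, stood at 0.766, 1.96, 0.957 and 0.93 normalised counts in bone marrow. In small intestine it stood at 1345, 1892, 2129.9 and 2027 (8.83 ± 0.22, limma adjusted p = 1.81e-07). Ccr3 rose by 7.83 ± 0.28, P2ry14, a receptor for UDP-glucose, by 7.73 ± 0.24 and Ptafr, the receptor for platelet-activating factor, by 6.32 ± 0.21 (limma adjusted p = 7.36e-07, 3.3e-07 and 5.06e-07). Cxcr4, which holds leukocytes in the bone marrow, was higher by 1.77 ± 0.24 (limma adjusted p = 0.000538, and 0.134 with median centring). Lower were S1pr4, Fpr2 and Ltb4r1, receptors for sphingosine 1-phosphate, formyl peptides and leukotriene B4, at -2.44 ± 0.24, -2.11 ± 0.30 and -1.55 ± 0.25 (limma adjusted p = 8.93e-05, 0.00076 and 0.00145). Over these 8 lists, from the other RGS genes to the receptors, the share called ran from 42.9% to 78.9%, against 34.9% of all genes and 63.4% of those with a mean of at least 10 normalised counts.

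**Figure D4:**
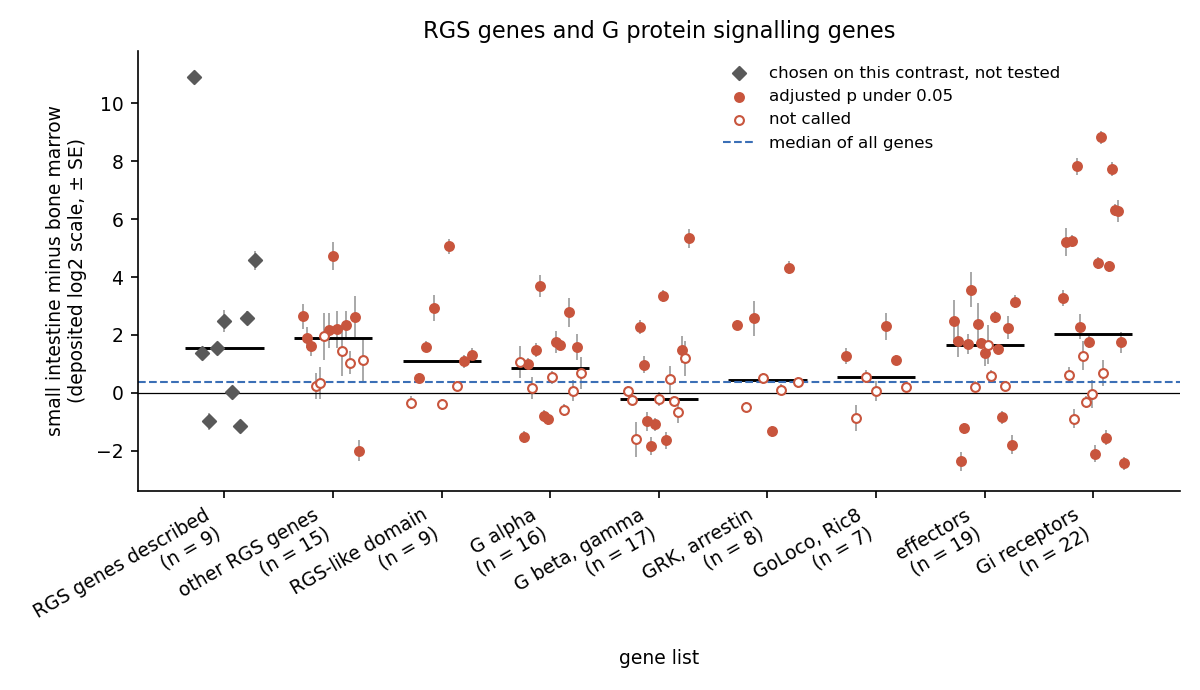
Difference between the tissues on the deposited log2 scale (± SE) for each gene of the 9 RGS genes and of 8 lists of G protein signalling genes; black bars are list medians, the dashed line the median of all genes (0.37), filled circles have a limma adjusted p under 0.05 and open circles do not. The RGS genes described are shown as diamonds without a test; Rgs1, at 10.92, lies above every gene of the lists, the highest of which is Hcar2 at 8.83.

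Markers of other cell types were summed per library, and no listed marker was at 0 in all libraries of a tissue. Of all genes, limma called 22.0% higher in small intestine and 12.9% lower. Among genes with a mean of at least 10 normalised counts it called 35.3% higher and 28.1% lower. By limma, 10 of 11 macrophage and dendritic cell genes were higher in small intestine, with sums of 29472 to 36793 normalised counts against 949 to 1232, led by Itgax, which eosinophils of the gut also carry. For fibroblast and muscle genes, 7 of 8 were higher (746 to 2168 against 29.7 to 141). Of 7 platelet genes, among them the chemokine gene Ppbp, 2 were higher and 1 lower (790.3 to 1127 against 161 to 306). Of 7 genes each, B and plasma cells had 1 higher and 2 lower (1855 to 4052 against 1750 to 2132, led by the immunoglobulin gene Ighm), T cells 1 and 1 (47.4 to 74.9 against 52.2 to 83.7, the lower call, Il7r, lost under 8 alternatives), and mast cells and basophils 1 and 3 (28.4 to 46.9 against 216 to 319). Of the 6 eosinophil genes, 3 were higher and 3 lower (16963 to 25132 against 2394 to 3387). The part of these cells, and of the neutrophil precursors seen in the bone marrow libraries, in the RGS values was not tested.

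The spread among the 4 intestinal libraries was compared with that of marker genes, as a description. Rgs1, Rgs2, Siglecf and Il5ra shared the order SI_6, SI_7, SI_10 and SI_11 from lowest to highest. So did Dusp1, an early response gene (-0.30, -0.16, 0.13 and 0.33 from its mean), and the sum of the 12 early response genes (61292, 63339, 75849 and 82011 normalised counts). Ccr3 did not, with SI_7 (0.04) above SI_10 (-0.03). Relative to its intestinal mean, SI_11 was higher by 0.33 for Rgs1, 0.38 for Rgs2 and 0.33 for Siglecf on the log2 scale. SI_6 was at -0.25 for Rgs1, -0.25 for Rgs2 and -0.20 for Siglecf. Rgs12 had another order, with SI_6 and SI_7 high (0.37 and 0.48) and SI_10 and SI_11 low (-0.40 and -0.45). Rgs10 (0.22 and 0.18 against -0.33 and -0.06) and the barely covered Rgs16 (0.59 and 0.17 against -0.21 and -0.55) split likewise. Rgs3, Rgs14, Rgs18 and Rgs19 did not and were highest in SI_11. Cd74, the MHC-II invariant chain, split the libraries the same way (1.25 and 0.68 against -1.45 and -0.48), although the gate asked for absence of MHC-II. Rgs5 was highest in SI_6 at 0.89, where Epcam, an epithelial adhesion gene, stood at 2787, 946, 396 and 467 normalised counts over the 4 libraries in order. The part of cell make-up in these orders was not tested.

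**Figure D5:**
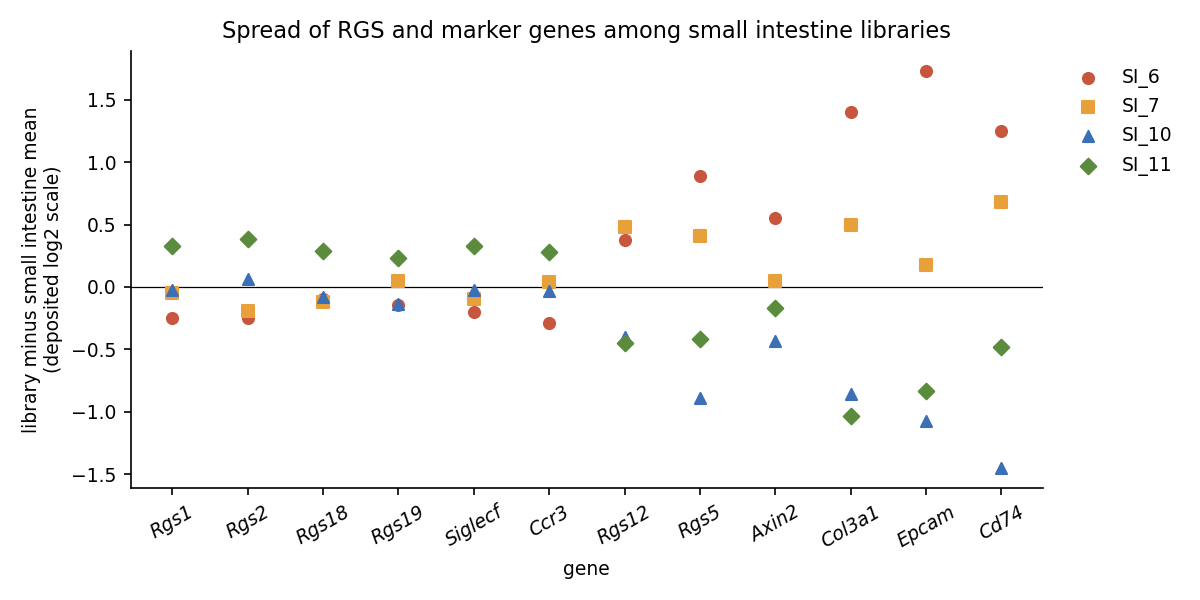
Deviation of each small intestine library from the small intestine mean on the deposited log2 scale, for RGS genes, eosinophil genes (Siglecf, Ccr3) and markers of other cells (Col3a1 of fibroblasts, Epcam of epithelium, Cd74 of MHC-II cells); each symbol is a library. Rgs1 and Rgs2 are highest in SI_11 and lowest in SI_6, and Rgs5, Axin2, Col3a1, Epcam and Cd74 are highest in SI_6.

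The genes whose profile over the 8 libraries was most like that of Rgs1 were sought among 12962 protein-coding genes with a mean of at least 10 normalised counts, by the root mean square (RMS) of the difference between centred log2 values. They were Ptgs2, an inducible prostaglandin synthase (RMS 0.19), Adamdec1, a metalloprotease of the gut mucosa (0.20), Cxcl2, a neutrophil chemokine (0.21), Tgm2, a transglutaminase (0.31), and Cxcl3, another such chemokine (0.37). Their differences between the tissues ran from 10.33 ± 0.25 for Cxcl3 to 10.94 ± 0.21 for Cxcl2. For Rgs19, the gene with the largest fall, genes among the most alike were Rbm43 (0.05), D6Wsu163e (0.06), Ncoa4, a ferritin receptor of autophagy (0.07), and Aggf1 (0.08). With 8 libraries in 2 tissues, such likeness rests mostly on the step between the tissues.

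Promoter windows, from 250 bases before to 50 bases behind the start, were read from RefSeq (GRCm38.p6) and were found for 6 of the 9 genes. Those of Rgs2 and Rgs19 are shown, the most abundant members with a window, one higher and one lower in small intestine. Matches on either strand to 5 motifs are in capitals: TGACGTCA (CRE), TGANTCA (AP-1), GCGTG (XRE), TATAAA and CCAAT. The Rgs2 window, chr1:144004100-144004399 on the minus strand, held GCGTG at -74 and CCAAT at -94 from the start:
Rgs2: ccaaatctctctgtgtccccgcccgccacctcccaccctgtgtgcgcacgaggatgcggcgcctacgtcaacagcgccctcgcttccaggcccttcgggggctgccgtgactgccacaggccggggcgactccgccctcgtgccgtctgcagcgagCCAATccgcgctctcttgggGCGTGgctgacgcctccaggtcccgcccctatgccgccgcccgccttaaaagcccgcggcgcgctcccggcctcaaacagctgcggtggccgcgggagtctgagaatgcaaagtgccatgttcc
The first Rgs19 window, chr2:181693928-181694227 on the minus strand, held GCGTG on the opposite strand, printed as CACGC, at -111 and -93:
Rgs19: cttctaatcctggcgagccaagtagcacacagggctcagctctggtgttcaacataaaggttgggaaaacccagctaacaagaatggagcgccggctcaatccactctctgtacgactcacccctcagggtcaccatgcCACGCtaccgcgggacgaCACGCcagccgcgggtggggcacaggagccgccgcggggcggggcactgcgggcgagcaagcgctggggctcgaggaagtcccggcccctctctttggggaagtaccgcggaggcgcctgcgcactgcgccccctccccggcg
Over all 32851 windows, 32.4% held GCGTG, 37.4% CCAAT, 13.6% TATAAA, 7.81% TGANTCA and 1.79% TGACGTCA, so matches of the first kinds are common. TGACGTCA was in no window of the 6 genes, and TGANTCA was in 1, the second window of Rgs12. A match is a description of the letters and not of binding.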

How the data were processed

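RNA-seq libraries of sorted eosinophils, 4 per tissue, were analysed from 1 table. Per the methods and notes of the study, NuGEN-amplified cDNA was read from a single end (at least 75 bases), aligned to GRCm38 (Ensembl) with a public nextflow pipeline, and counted per gene. Aligner, strandedness and handling of multi-mapping reads: not given in the sources used here. The values deposited by the authors are variance-stabilised by DESeq2 and on a log2 scale. From them the closed form of the transformation was inverted, which gave whole reads within 0.05 for 100% of values in each library and size factors of 0.721 to 1.53. Columns gave the tissue of a library but no single sample.

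The 9 genes, the gene lists and the tests were chosen with earlier results of these data known. All genes were fitted with limma 3.58.1 (R 4.3.3) on the deposited values (2-sided, Benjamini-Hochberg over 38392 genes, threshold 0.05). The authors fitted a count model, and limma took its place because the unit is log2. The script was tested on simulated data. Named genes are all 9, other RGS genes with a mean of at least 10 normalised counts, and per list the up to 3 largest rises and falls among called, non-overlapping genes with that mean, the most abundant members, the markers, and the 5 profiles most like Rgs1 and Rgs19, of which 1 is not reported here. Lengths and overlaps came from GENCODE M21. Figures and summaries used Python 3.11.15. Alternatives were limma voom, pseudocounts of 1 and 5, a filter at a mean of 10, median centring, quantile normalisation, limma trend and leaving out each library. The longest protein-coding transcript as a gene's length was added after the data were seen. Promoters of Rgs1, Rgs14 and Rgs18 and protein sequences were not analysed here.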

Additional observations from a re-analysis of the deposited data

Results flagged for a closer look

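For each group of 4, the gap of a library to the nearest other one was taken as a share of the range, on the deposited log2 scale. A library was set apart within its tissue where that share passed Dixon's 95% critical value, which chance does in about 1 of 20 groups. Normalised counts are given beside the shares for reading only. Of 162 groups examined, 9 had such a library, against 8.1 by chance. In bone marrow, BM_1 was the lowest for Rgs14 (0.832 of the range; 249 normalised counts against 316 to 331) and for Fpr2 (0.866), BM_3 was the lowest for Cxcl3 (0.850), and BM_4 was the highest for Gnai1 (1), where the other libraries had no read. In small intestine, SI_11 was the highest for Rgs18 (0.902; 231 against 173 to 178), Gngt2 (0.886), Ltb4r1 (0.876) and Ppbp (0.947), and SI_6 was the lowest for Gnb4 (0.877). Among the 9 RGS genes, Rgs14 and Rgs18 thus each had 1 such library. Without BM_1 the difference of Rgs14 was 1.46, and without SI_11 that of Rgs18 was -0.06.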

How the results depend on the processing

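Over 15 alternatives, the 9 RGS genes kept their direction except Rgs18, which ran from -0.87 (median centring) to 0.10, and Rgs16 could not be computed under the filter. The range was 10.02 to 11.03 for Rgs1, 1.70 to 2.68 for Rgs2, 3.68 to 4.90 for Rgs3, 0.48 to 1.49 for Rgs10, -1.89 to -0.84 for Rgs12, 0.66 to 1.60 for Rgs14, 1.58 to 3.97 for Rgs16 and -2.06 to -1.11 for Rgs19. Median centring called 4285 genes higher and 10216 lower in small intestine (29.5% higher, against 63.2% with the authors' size factors) and left 6 G alpha genes called, against 10. That centring used the median over all genes, of which 22084 had a mean under 10 normalised counts. Of the 15 other RGS genes only 6 entered under the filter, where 3 were called higher and 1 lower. In the main fit 2 of those 6 were higher and 1 lower. Of the kinases and arrestins, the filter and limma trend each called 7, against 4 in the main fit. Leaving out a library gave 10982 to 14670 calls in all and 3 to 5 for the GoLoco and Ric8 genes. The highest was without SI_6, with 4 higher and 1 lower. Signs turned for Arhgef1 (-0.40), Gnb1 (-0.84), Gpsm3 (-0.35) and Plcb2 (-0.67) under median centring, for Gnb1 (-0.36) and Plcb2 (-0.44) under quantile normalisation, for Gnb1 without BM_5 (-0.00389; 0.0908 at most without another library), and for Ighm without BM_1 (0.00346), SI_6 (0.034) or SI_10 (0.0233; -0.13 at the lowest). The cause was not tested. Depth limits genes with a mean under 10 normalised counts, where most false calls fell in simulated data. The simulation had a fixed relation of spread to mean and no stray reads, so it cannot show where false calls fall in these libraries.

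No paired analysis was possible because columns match no single sample and the labels number the mice of each tissue separately.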
